A study of Homo sapiens with 4 samples.

Results

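Natural antisense transcripts are RNAs copied from the strand opposite a named gene, most of them long noncoding RNAs, and the symbols of this class end in -AS and a digit. Of the 1004 such symbols among the 26506 genes listed for HeyC2 and SKOV3 ovarian cancer cells, 359 reached an FPKM of at least 1 in 1 or more of 4 libraries. These expressed antisense transcripts are described here beside the sense gene that shares their name stem. FPKM counts fragments per kilobase of transcript, scaled to the size of the library, so that levels are set per transcript length. The partner was listed for 352 of the 359, and 8 stems carried more than 1 member (16 members in all). The other 7 members (HOXB-AS1, HOXB-AS3, HOXC-AS1, HOXC-AS3, HOXD-AS2, JHDM1D-AS1 and RPARP-AS1) had no listed gene with their stem. Of the 1004 symbols, 382 were at 0 in every library.

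The study asked what the demethylating enzyme TET1 changes in ovarian cancer cells. HeyC2 and SKOV3 are established human ovarian cancer cell lines. In each line, cells transfected with pCMV6/TET1 (genotype label TET1 overexpressed) stood beside cells given the empty plasmid (genotype label Wild-type). All 4 cultures received a plasmid with lipofectamine 2000 and were kept in Geneticin. Expression of TET1 was driven from the transfected plasmid, and the number of clones behind each selected culture was not given in the sources used here. There was 1 library for each group, so every difference below compares 2 libraries, has no replicate check and no p-value, and describes those libraries. The membership rule used these same levels, so levels and differences of the members are given as a description. In such bulk libraries, fewer cells with a transcript and less of it per cell cannot be told apart.

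Antisense RNAs can start head to head with their partner from a shared promoter region, start inside it, or run into it from its far end. Some are known to act on the neighbouring gene through its chromatin, its transcription or its messenger RNA, and others are by-products of an open promoter. TET1 oxidizes methylated cytosine in CG dinucleotides, which are dense at many promoters where transcription leaves in both directions.

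TET1 itself was listed at 0.20 FPKM in HeyC2 control and 1.68 in HeyC2 TET1, and at 0.43 and 2.42 in the SKOV3 pair, as deposited. The values of both TET1 libraries sat on a grid wider than the 0.01 FPKM steps of the controls, by 3.2344 in HeyC2 and 1.3456 in SKOV3, and the deposited GAPDH level was identical within each line (5417 and 2248). All levels below are after division by these constants, which put TET1 at 0.519 and 1.80 FPKM in the TET1 libraries and GAPDH at 1675 and 1671. On that scale TET1 was above control by 0.34 in log2(FPKM + 1) in HeyC2 and by 0.97 in SKOV3. The HeyC2 difference is under the 1.5-fold limit used below for a call. The libraries were estimated to hold 6560000 to 7300000 fragments, so that 1 FPKM on a 1-kb transcript rested on about 6 fragments (exact Poisson 95% interval 2.2 to 13.1, counting error only). All 4 libraries expressed KRT8, KRT18, PAX8 and VIM, and 0 of 4 blood markers reached 1 FPKM. Of 6 ovarian markers, PAX8 (74.6 to 195 FPKM) and SOX17 (2.64 to 79.4) were expressed throughout, MSLN was at 46.6 and 77.5 in HeyC2 and 10.3 and 0.0817 in SKOV3, and WT1, MUC16 and EMX2 were at or near 0. Of 7 epithelial markers, 3 and 4 reached 1 FPKM in HeyC2 control and TET1, and 7 and 6 in SKOV3 control and TET1. The endothelial marker CDH5 was at 18.9 and 94.6 FPKM in the HeyC2 libraries, with PECAM1 under 0.1, and the fibroblast marker COL1A1 reached 27.7 in SKOV3 TET1, with DCN at 0.

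Promoters of 5 antisense transcripts are shown because the contrasts described later turn on them. ZNF667-AS1 and ZNF528-AS1, with their zinc finger partners, were at or near 0 in HeyC2 and expressed in SKOV3. NNT-AS1 and its partner were higher in HeyC2 than in SKOV3. B3GALT5-AS1 and DICER1-AS1 were among the members furthest above their control in SKOV3 TET1. Each run holds 250 bases before and 50 after the RefSeq start site on GRCh38.p14, read 5′ to 3′ on the strand of the antisense transcript, with CG dinucleotides in capitals. The positions are chr19:56477624-56477923 (plus strand) for ZNF667-AS1, chr19:52397708-52398007 (minus) for ZNF528-AS1, chr5:43603181-43603480 (minus) for NNT-AS1, chr21:39612773-39613072 (minus) for B3GALT5-AS1 and chr14:95157438-95157737 (plus) for DICER1-AS1.
ZNF667-AS1: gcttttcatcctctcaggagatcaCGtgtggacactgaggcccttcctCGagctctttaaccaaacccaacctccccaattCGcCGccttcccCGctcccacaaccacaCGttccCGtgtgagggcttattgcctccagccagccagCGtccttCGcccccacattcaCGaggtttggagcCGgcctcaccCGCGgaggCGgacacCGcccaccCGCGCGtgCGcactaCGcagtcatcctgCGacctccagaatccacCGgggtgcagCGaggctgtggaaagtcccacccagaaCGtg
ZNF528-AS1: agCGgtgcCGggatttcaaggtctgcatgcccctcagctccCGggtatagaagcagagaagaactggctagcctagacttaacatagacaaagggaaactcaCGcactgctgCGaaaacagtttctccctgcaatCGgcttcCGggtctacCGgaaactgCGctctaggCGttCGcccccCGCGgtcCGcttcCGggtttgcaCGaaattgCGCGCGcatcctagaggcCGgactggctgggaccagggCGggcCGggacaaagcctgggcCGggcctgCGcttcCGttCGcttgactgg
NNT-AS1: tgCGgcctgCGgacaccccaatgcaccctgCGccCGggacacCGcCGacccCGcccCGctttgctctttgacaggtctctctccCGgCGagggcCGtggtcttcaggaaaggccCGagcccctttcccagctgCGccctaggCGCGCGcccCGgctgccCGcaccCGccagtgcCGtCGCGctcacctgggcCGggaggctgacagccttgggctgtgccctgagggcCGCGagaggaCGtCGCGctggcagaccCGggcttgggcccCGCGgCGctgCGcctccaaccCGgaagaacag
B3GALT5-AS1: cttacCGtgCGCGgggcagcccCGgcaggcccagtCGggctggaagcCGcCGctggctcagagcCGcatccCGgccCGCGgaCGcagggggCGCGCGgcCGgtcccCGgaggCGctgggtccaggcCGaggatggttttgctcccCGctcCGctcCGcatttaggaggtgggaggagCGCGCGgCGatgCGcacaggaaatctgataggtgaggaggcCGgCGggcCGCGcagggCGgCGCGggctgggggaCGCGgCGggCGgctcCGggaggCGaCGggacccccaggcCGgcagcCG
DICER1-AS1: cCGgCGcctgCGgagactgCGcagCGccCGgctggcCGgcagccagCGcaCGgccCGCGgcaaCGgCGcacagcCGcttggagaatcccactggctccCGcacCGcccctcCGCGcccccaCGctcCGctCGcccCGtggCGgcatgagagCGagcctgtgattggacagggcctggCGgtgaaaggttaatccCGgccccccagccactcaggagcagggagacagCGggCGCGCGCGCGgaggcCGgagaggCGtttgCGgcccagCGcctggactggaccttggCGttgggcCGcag

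These windows held 24 (ZNF667-AS1), 26 (ZNF528-AS1), 34 (NNT-AS1), 43 (B3GALT5-AS1) and 38 (DICER1-AS1) CG dinucleotides, against a median of 14 over the 27305 promoters of that length in the table. The letters CG read the same on both strands and cannot overlap themselves, and 95.8% of all those promoters held at least 1. A promoter was called island-like when at least 50% of its bases were G or C and its CG count was at least 0.6 of the count that its base composition predicts. All 5 were island-like, as were 46.9% of all promoters. Of the 359 members, 267 (74.4%) had a promoter in the table. That is under 80%, so a comparison of promoter composition over the whole set is void and is not given.

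In the GENCODE annotation of GRCh37, the build of hg19, 347 of the 359 members could be placed, and 335 of them were typed as long noncoding RNA. Their main transcripts had a median of 3 exons and 1715 bases. A further 6 were typed as protein coding (FAM83H-AS1, MMP24-AS1, NCBP2-AS2, SPTY2D1-AS1, TNRC6C-AS1 and TOPORS-AS1). Of the 339 pairs with both genes placed, 0 lay on the same strand. The start sites of 166 pairs were within 1 kb of each other, at a median distance of 234.5 bases. In 63 pairs the antisense transcript started farther inside the partner, and 110 pairs had another arrangement. Exons of the 2 genes shared at least 1 base in 240 pairs and none in 99. The library kit named by the labels is not described there as marking strand, and without strand a fragment from shared exonic sequence cannot be told apart between an antisense transcript and its partner.

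Most expressed antisense transcripts were at low levels. The highest FPKM of a member had a median of 3.30 over the 359 (quartiles 1.70 and 7.16), and 110 members peaked between 1 and 2 FPKM, whereas 6 reached 50. Partners were higher, with a median peak of 16.7 FPKM. The mean level of an antisense transcript was at a median 19.5% of that of its partner, and 66 members were above it. At 1 FPKM or more, 134 members were found in all 4 libraries, 92 in a single library, 51 in HeyC2 only and 89 in SKOV3 only. The same split over all genes is not given here, so these counts do not set the members apart from other genes. The members just inside the limit peaked at 1 FPKM to 2 decimals (A2M-AS1, KLHL7-AS1 and DLG5-AS1), and those named just outside it at 0.989 (GDNF-AS1) and 0.988 (ZMIZ1-AS1).

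By library, 222 and 238 members reached 1 FPKM in HeyC2 control and HeyC2 TET1, and 212 and 282 in the SKOV3 pair. Genes of any name above 0, a lower limit, numbered 15162 and 15574 in HeyC2 and 16149 and 16941 in SKOV3. SKOV3 TET1 held the most by either count. SKOV3 control held the fewest members but more genes above 0 than either HeyC2 library. The summed FPKM of the members was 3841 in HeyC2 control and 2765 in HeyC2 TET1, and 1960.2 and 2296 in the SKOV3 pair. VIM-AS1 alone made up 56.6%, 28.7%, 17.9% and 9.93% of these sums. Without VIM-AS1 the sums were 1666 and 1971 in HeyC2 and 1610.1 and 2068 in SKOV3, so the lower sum of HeyC2 TET1 rested on that transcript.

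VIM-AS1 was the highest member in every library. It was at 2175 FPKM in HeyC2 control, 794 in HeyC2 TET1, 350.2 in SKOV3 control and 228 in SKOV3 TET1. VIM, the intermediate filament protein vimentin of mesenchymal cells, was at 7496, 2927, 1223 and 835 in the same order, so that the 4 libraries ranked alike for both. VIM-AS1 (chr10:17256238-17272017 on hg19, minus strand) starts inside VIM (chr10:17270240-17279592, plus strand), and 641 of the bases of its main transcript (33.7%), at chr10:17271344-17271984, were also exonic in the main VIM transcript. LRRC75A-AS1, which hosts small nucleolar RNAs, was next at 499 and 558 FPKM in HeyC2 and 138 and 206 in SKOV3. Its partner LRRC75A stayed between 0.460 and 3.85.

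PCNA-AS1 was at 58.3 and 95 FPKM in HeyC2 and 227 and 132 in SKOV3. PCNA, the sliding clamp of DNA polymerases, was at 57.1 and 97.3 in HeyC2 and 208 and 107 in SKOV3, nearly the same level in each library. UGDH-AS1, head to head with the UDP-glucose dehydrogenase gene UGDH, was the only one of the 10 highest members past 1.5-fold above control in both lines, at 54.2 and 89.7 FPKM in HeyC2 and 56.5 and 105 in SKOV3. HIF1A-AS2 was at 12.8 and 10.3 in HeyC2 and 54.0 and 89.9 in SKOV3, beside 60.0, 51.5, 242 and 351 for HIF1A, a subunit of the hypoxia-inducible factor. The rest of the 10 highest were MIF-AS1 (19.9 to 76.1 FPKM), CBR3-AS1 (22.8 to 44.3), FGD5-AS1 (22.0 to 36.4), NCBP2-AS2 (20.3 to 36.9) and RAET1E-AS1 (14.8 to 30.9), none of which passed 1.5-fold (defined below) in either TET1 comparison.

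**Figure D1:**
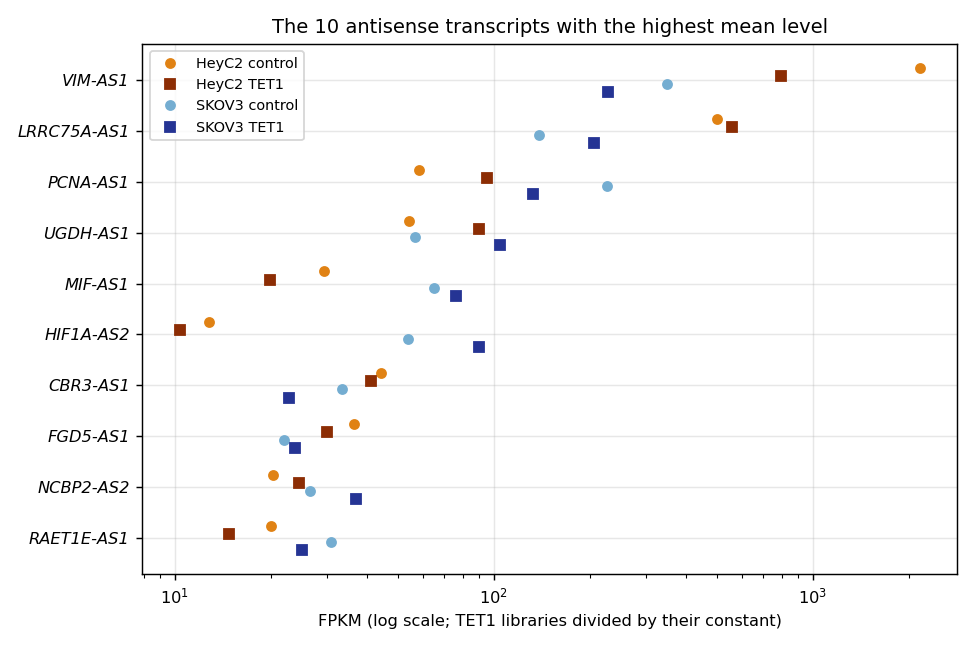
FPKM on a log axis of the 10 antisense transcripts with the highest mean level, with 1 point for each library (circles control, squares TET1; 1 library a group, so no error bars). VIM-AS1 spans 228 to 2175 FPKM, and UGDH-AS1 lies higher in both TET1 libraries than in both controls.

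The antisense level as a percent of its partner's was then compared over libraries in the 19 pairs in which both genes were at 5 FPKM or more in every library. VIM-AS1 stood at 29.0%, 27.1%, 28.6% and 27.3% of VIM in HeyC2 control, HeyC2 TET1, SKOV3 control and SKOV3 TET1, a highest-to-lowest ratio of 1.07, although VIM itself varied 8.98-fold. MIF-AS1 stood at 5.26% to 5.89% of MIF, a secreted cytokine, which varied 3.98-fold. PCNA-AS1 stood at 97.6% to 123% of PCNA. In these pairs the 2 genes kept nearly a fixed proportion while both changed several-fold.

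Of the 19 pairs, 10 shared bases between their main transcripts, and the ratio of highest to lowest percent had a median of 1.32 in them (6 of 10 under 1.5). The rest of the 10 were PXN-AS1, at 4.27 the widest of all 19, PITPNA-AS1 (2.53), MAPKAPK5-AS1 (2.03) and ARRDC1-AS1 (1.60). In the 6 placed pairs with no shared base between main transcripts the median was 2.72, and 0 of 6 were under 1.5. Those 6 were WAC-AS1, LLPH-AS1, TPT1-AS1, NCBP2-AS2, BAIAP2-AS1 and UGDH-AS1. Over all annotated exons, WAC-AS1 and UGDH-AS1 did share 515 and 513 bases with their partners. UGDH-AS1 had the widest proportion among the 6, from 214% to 861% of UGDH. BAIAP2-AS1 went from 23.3% of BAIAP2 in SKOV3 control to 92.9% in SKOV3 TET1. PCNA-AS1, HIF1A-AS2 and FBXO22-AS1 could not be placed, so their shared bases are unknown. The part that fragments of the partner play in the fixed proportions was not tested.

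**Figure D2:**
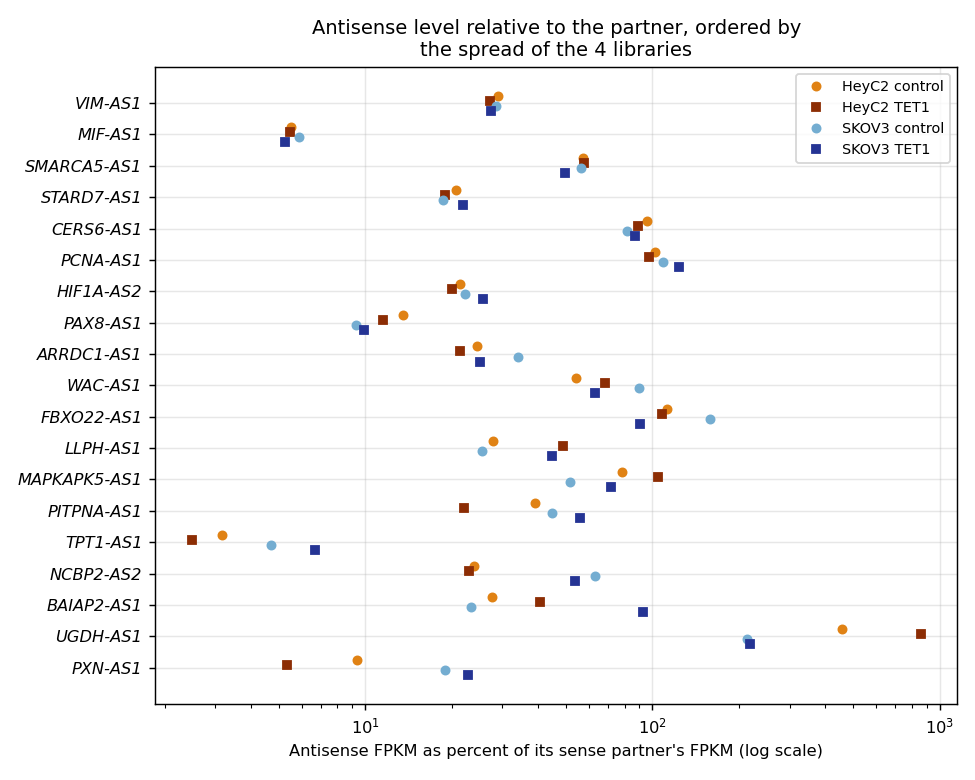
Antisense FPKM as a percent of the sense partner's FPKM (log axis) in the 19 pairs with both genes at 5 FPKM or more in all libraries, 1 point for each library, ordered from the smallest spread at the top. The 4 points of VIM-AS1 fall between 27.1% and 29.0%, whereas those of UGDH-AS1 run from 214% to 861% and those of PXN-AS1, the widest, from 5.35% to 22.8%.

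Next, each TET1 library was compared with its control. A member was counted as higher or lower when the difference in log2(FPKM + 1) corresponded to at least 1.5-fold, a scale that understates changes of low transcripts. In HeyC2, 75 of 359 members were higher in TET1 (20.9%), against 13.8% of the 14387 genes of any name at the same level limit. Lower were 24 (6.69%), against 6.79% of all genes. The median difference was 0.12 over members and 0.04 over all genes. Among transcripts that peaked under 10 FPKM, 21.1% of 303 members and 14.6% of all genes were higher, so the share stood above that of all genes at like levels too. Of the 56 members that reached 10 FPKM, 11 were higher (19.6%) and 2 lower (3.57%), against 13.3% and 7.01% of 8705 genes at that level. The split depended on scaling. After rescaling to TPM, which sets the sum of each library alike, 91 were higher (25.3%, against 14.5% of all genes) and 49 lower (13.6%, against 10.1%). As deposited, 279 were higher (77.7%) and 9 lower, and the order turned round, since 86.8% of all genes were then higher.

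In SKOV3, 133 members were higher in TET1 (37%) and 30 lower (8.36%), against 28.9% and 11.3% of all genes, with a median difference of 0.38 over members and 0.19 over all genes. Under 10 FPKM, 38.3% of the members and 38.2% of all genes were higher, nearly the same share, while of the 56 members at 10 FPKM or more 17 were higher (30.4%) and 7 lower (12.5%), against 22.8% and 13.9% of all genes there. Once the median of all genes was subtracted, 97 members were higher (27%, against 20.6% of all genes) and 46 lower (12.8%, against 17.7%). As deposited, 199 were higher (55.4%, against 48.9%) and 18 lower (5.01%, against 4.78%). Estimated fragments were under 10 even in the higher library for 16 of the 71 HeyC2 and 20 of the 129 SKOV3 higher members with an estimate. Epithelial markers moved with the SKOV3 comparison in both directions: of 7, 3 were lower in TET1 (KRT7 at 1537 and 22.0 FPKM, KRT19 at 255 and 0.461, CLDN4 at 24.2 and 14.5) and 4 were higher (KRT8 at 559.9 and 775, KRT18 at 193 and 255, CDH1 at 2.24 and 6.30, EPCAM at 15.4 and 16.1). Their summed level, 2587 in control and 1089 in TET1, followed KRT7 and KRT19, and the part of these markers in the antisense differences was not tested. Long intergenic transcripts (LINC symbols) were higher in 43 of 168 (25.6%) in HeyC2 and 71 (42.3%) in SKOV3.

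The members furthest above control in HeyC2 included SLCO4A1-AS1 and TRHDE-AS1. SLCO4A1-AS1, which starts inside the organic anion transporter gene SLCO4A1, was at 3.76 FPKM in HeyC2 control and 12 in TET1, a difference of 1.45 in log2(FPKM + 1), beside 55.1 and 265 for SLCO4A1. In SKOV3 both were lower in TET1, at 1.12 and 0.357 for the antisense transcript and 43.0 and 7.03 for its partner. The listed values of both genes thus moved alike in each line and in opposite directions between lines. The antisense values rest on about 18 and 53 estimated fragments in HeyC2 but only 5 and 2 in SKOV3, too few to settle its direction there. TRHDE-AS1 was at 7.84 and 22.2 beside 8.76 and 20.9 for TRHDE, the enzyme that degrades thyrotropin-releasing hormone. KCNJ2-AS1 was at 0.830 and 3.57 beside 0.310 and 1.27 for KCNJ2, an inwardly rectifying potassium channel. In HeyC2, both genes of all 3 pairs were listed higher in TET1.

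HLTF-AS1 was listed at 0 FPKM in HeyC2 control and 3.00 in TET1, which is about 5 estimated fragments. TM4SF1-AS1 (0 and 1.53) and PARD6G-AS1 (0 and 1.41) were likewise listed at 0 in control, and NPPA-AS1 (0.170 and 1.63) and FRMD6-AS1 (0.710 and 2.92) close the 8 largest increases. Such low members rest on few fragments. Of the 75 higher members in HeyC2, 8 were listed at 0 in control.

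VIM-AS1 had the largest decrease in HeyC2, by 1.45 in log2(FPKM + 1), but with the values as deposited it was 0.24 higher. VIM fell by 1.36 after the constant was divided out. Of the other 3 mesenchymal markers, FN1 was at 5557 FPKM in control and 2619 in TET1, CDH2 at 26.9 and 43.2, and ZEB1 at 22.7 and 23.9, so the list did not move 1 way. SOCS2-AS1 was at 1.64 FPKM and then listed at 0, about 23 and 0 estimated fragments, beside 4.90 and 6.98 for SOCS2, a suppressor of cytokine signalling. IL10RB-AS1 (1.31 and 0), BAALC-AS1 (1.2 and 0), OR2A1-AS1 (1.06 and 0) and ID2-AS1 (1.04 and 0) were also listed at 0 in HeyC2 TET1. SYNE1-AS1 was at 2.19 and 0.269 FPKM, and RAMP2-AS1 at 2.41 and 0.501. Apart from VIM-AS1, all of these were under 2.5 FPKM in control.

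In SKOV3 the largest increase was that of DICER1-AS1, listed at 0 in control and at 4.75 FPKM in TET1, about 100 estimated fragments. DICER1, the ribonuclease that makes mature microRNAs and starts 120 bases away on the other strand, was at 9.06 and 6.16, which did not pass 1.5-fold. The antisense transcript was thus high in 1 library of 4, since it was at 0.630 and 0.699 in HeyC2. B3GALT5-AS1 was at 0.120 and 3.73 FPKM in SKOV3, and the galactosyltransferase gene B3GALT5, with its start 83 bases away, was at 1.46 and 7.08. MSC-AS1 was at 0.210 and 4.25 beside 0.300 and 9.94 for MSC, the transcription factor musculin. In these last 2 pairs both genes were listed higher in TET1.

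PIK3CD-AS2, inside the gene of the PI 3-kinase delta catalytic subunit, was at 0.390 and 5.41 FPKM in SKOV3 and at 4.01 and 8.16 in HeyC2. STARD4-AS1, beside the sterol transfer gene STARD4, was at 0.0800 and 3.45 in SKOV3 and 1.80 and 4.98 in HeyC2. Both were thus lower in SKOV3 control than in the other 3 libraries. MAP3K14-AS1 (0.340 and 4.45), SLC25A25-AS1 (0.840 and 5.89) and HOXC-AS1 (0.370 and 4.77) had SKOV3 increases of the same order, while their HeyC2 libraries were all under 1 FPKM.

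ITGB2-AS1 showed the largest SKOV3 decrease, at 4.73 FPKM in control and 0.223 in TET1, a difference of -2.23. ITGB2, the beta-2 integrin of leukocytes, was at 9.27 and 0.223, so both genes were listed lower together. CCDC183-AS1 (chr9:139698379-139703300 on hg19) did the reverse of its partner: it was at 10.6 and 2.03 while CCDC183 was at 0.360 and 4.76, and their main transcripts share 503 bases. HLA-F-AS1 was at 3.58 and 0.780 beside 60.3 and 60.6 for the class I gene HLA-F. TMPO-AS1 was at 8.25 and 3.21 beside 112 and 65.8 for TMPO, a nuclear lamina protein. ABHD11-AS1 (2.31 in control), HOXC-AS3 (2.07), VPS13A-AS1 (1.54) and GATA2-AS1 (1.16) were listed at 0 in SKOV3 TET1. The estimate was 12 fragments in control for GATA2-AS1 and 3 to 6 for the other 3.

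Across both lines, 25 members were higher in TET1 in each (6.96%), against 5.09% of all genes, and 2 were lower in each (0.557%), against 1.47%. The 2 that were lower were VIM-AS1 and IL10RB-AS1, the latter listed at 0 in both TET1 libraries. The 25 besides UGDH-AS1, PIK3CD-AS2 and STARD4-AS1 included GABPB1-AS1, at 2.53 and 4.42 FPKM in HeyC2 and 2.06 and 8.76 in SKOV3, whose partner encodes a subunit of the GA-binding transcription factor. They also included DLGAP1-AS1 (5.38 and 10.8, then 3.08 and 6.57) and BBOX1-AS1 (2.6 and 4.59, then 6.94 and 16.4), whose partners were at or under 0.55 FPKM in all libraries. MAFG-AS1, beside a small MAF transcription factor gene, was at 0.940 and 2.73 in HeyC2 and 3.02 and 7.83 in SKOV3, while MAFG was at 23.2, 21.7, 40.9 and 36.0. In none of these 4 pairs did the partner pass 1.5-fold upward in both lines.

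The other members of the 25 were AZIN1-AS1, CCDC18-AS1, EML2-AS1, HM13-AS1, INTS6-AS1, MMP25-AS1, NIFK-AS1, NUP50-AS1, PCF11-AS1, PSMD6-AS2, PTOV1-AS2, SDCBP2-AS1, SRP14-AS1, SSBP3-AS1, ST3GAL4-AS1, TMEM44-AS1, TNRC6C-AS1 and UCKL1-AS1. Most were at low levels. A further 9 members (2.51%) were higher in HeyC2 and lower in SKOV3, against 1.39% of all genes, and 9 (2.51%) were lower in HeyC2 and higher in SKOV3, against 1.65%. The first 9 held PCNA-AS1, ITGB2-AS1 and SLCO4A1-AS1, and the second held SOCS2-AS1, RAMP2-AS1 and PITPNA-AS1.

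**Figure D3:**
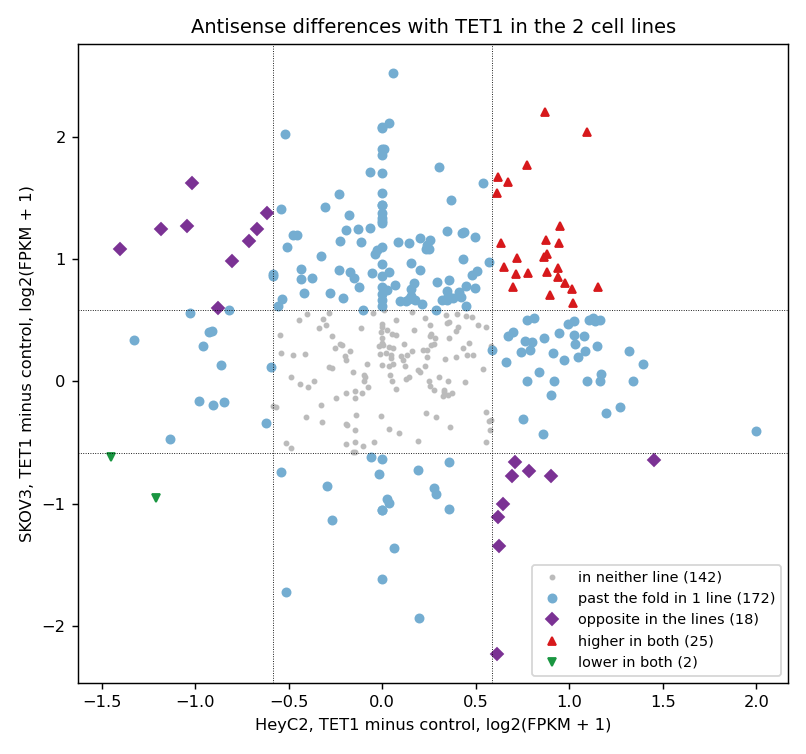
Difference in log2(FPKM + 1) between TET1 and control of the 359 members in HeyC2 (horizontal) and SKOV3 (vertical), each point 1 transcript, with dotted lines at 1.5-fold. In the upper right are 25 members, in the lower left 2, and 18 lie in the opposite corners.

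The question of whether antisense transcript and partner moved together was put to the 352 pairs. Of the members called in HeyC2 (99, all with a partner listed), the partner had the same sign in 54 (54.5%). In SKOV3 it was 105 of 158 (66.5%), and between the control lines 134 of 176 (76.1%). Called members were mostly higher with TET1, 75 beside 24 lower in HeyC2 and 133 beside 30 in SKOV3. Of the 318 partners that reached 1 FPKM, 165, 194 and 146 had a difference above 0 in the 3 comparisons. The same-sign shares therefore do not by themselves show a link within pairs. Both genes passed 1.5-fold in the same direction in 22, 55 and 94 pairs of the 3 comparisons and in opposite directions in 3, 14 and 16. The rank correlation of the differences over pairs (Spearman's rho, a description over genes of the same libraries) was 0.24 in HeyC2, 0.25 in SKOV3 and 0.50 between lines.

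Pairs were then divided by shared exonic sequence. In the 240 pairs with shared exonic bases rho was 0.27 in HeyC2 and 0.31 in SKOV3, and in the 99 pairs with none it was 0.05 and 0.07. The called members without shared bases had a partner of the same sign in 11 of 27 (40.7%) in HeyC2 and 23 of 45 (51.1%) in SKOV3. In the 21 pairs in which at least 50% of the main antisense transcript was shared, rho was 0.47 and 0.78. Head-to-head pairs with starts within 1 kb and no shared exonic base (66) gave 0.03 and 0.08. Members that start farther inside the partner (63) gave 0.43 and 0.39.

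Between the 2 control lines, rho was 0.28 over the 99 pairs with no shared exonic base and 0.58 over the 240 with shared bases, and 28 of the 41 called members without shared bases had a partner of the same sign (68.3%). The pairs past 1.5-fold in opposite directions in HeyC2 were EML2-AS1, SERTAD4-AS1 and TNRC6C-AS1. In SKOV3 the 14 included CCDC183-AS1, MAP3K14-AS1 and BAIAP2-AS1 (10.8 and 24.8 FPKM, beside 46.3 and 26.7 for BAIAP2, with no shared exonic base).

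**Figure D4:**
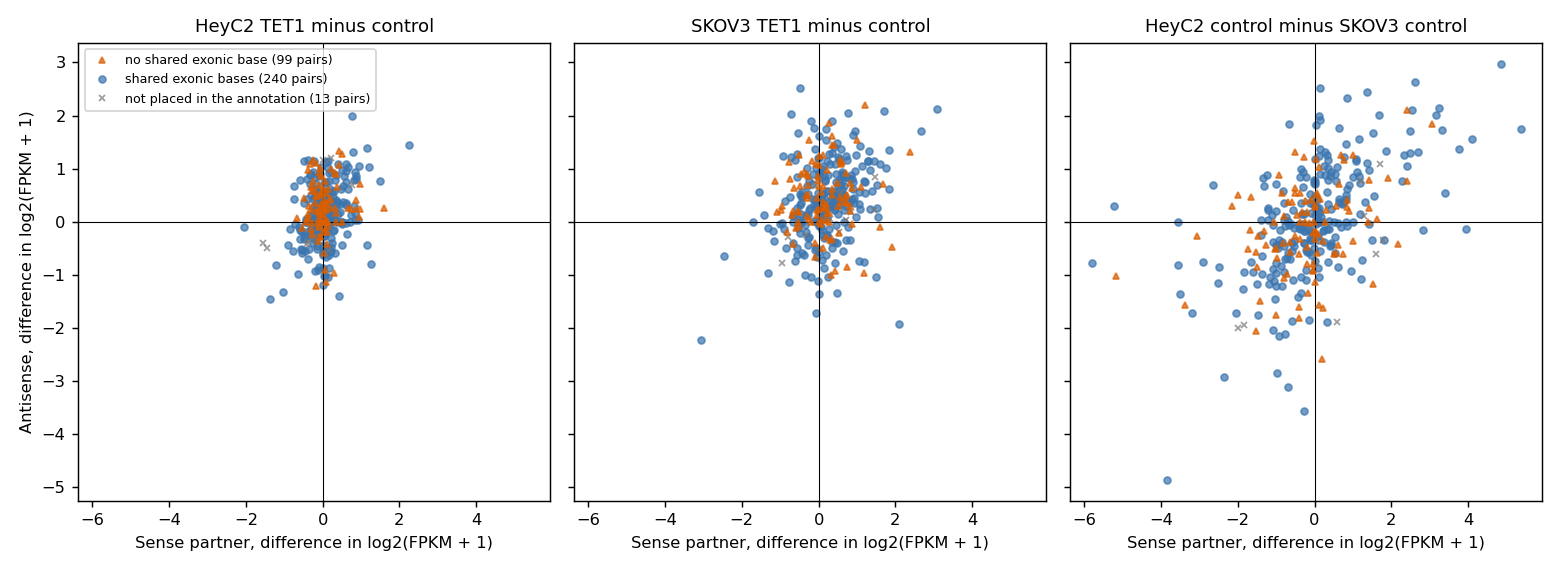
Difference in log2(FPKM + 1) of the antisense transcript (vertical) against that of its sense partner (horizontal), 1 point for each pair, in the 2 TET1 comparisons and between the control lines. Triangles are the 99 pairs without shared exonic bases, circles the 240 with them and crosses the 13 not placed. The points reach furthest from 0 between the control lines, down to -4.86 for MMP24-AS1.

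The empty-plasmid control libraries of the 2 lines were then compared. In HeyC2 control, 90 members were higher (25.1%) and 91 lower (25.3%) than in SKOV3 control, against 21.1% and 36.8% of all genes. The median difference was -0.03 over members and -0.25 over all genes, and with that median subtracted 123 members were higher (34.3%, against 27.8% of all genes) and 66 lower (18.4%, against 27.7%). More members were past 1.5-fold between the lines than in either TET1 comparison, and the same held over all genes. Of the 359 members, 178 stayed within 1.5-fold between the lines, 260 in the HeyC2 and 196 in the SKOV3 comparison. Of the 14387 genes, 6067, 11422 and 8613 did so. Of 7 epithelial markers, 6 were lower in HeyC2 control and KRT18 higher (summed FPKM 1145 and 2587), and all 4 mesenchymal markers were higher there (13102 and 1286), and their part in the antisense differences was not tested.

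MMP24-AS1 showed the largest difference, at 0.520 and 0.380 FPKM in HeyC2 control and TET1 and 43.2 and 35.6 in SKOV3. Its partner MMP24, a membrane-type matrix metalloproteinase, was at 0 and 0.0402 in HeyC2 and 13.3 and 15.7 in SKOV3, and their main transcripts share 647 bases. TP73-AS1, beside the p53 family gene TP73, was at 0.0300 and 0.0495 in HeyC2 and 7.89 and 10.9 in SKOV3, while TP73 was under 0.7 everywhere. ATP2A1-AS1 (0 in HeyC2 control, 10.9 in SKOV3 control) and EXOC3-AS1 (0.580 and 8.54) had partners that did not differ to a like extent, with ATP2A1 at 0.240 and 0.510 and EXOC3 at 20.1 and 17.4. SAPCD1-AS1 was at 0.290 and 4.55 in the control libraries. These transcripts were high in both SKOV3 libraries and low in both HeyC2 libraries.

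On the HeyC2 side, TM4SF19-AS1 was at 11.6 and 9.29 FPKM in HeyC2 and 0.590 and 0.721 in SKOV3, beside 61.9, 45.1, 1.18 and 0.372 for TM4SF19. GAS6-AS2 starts 36 bases from GAS6, the ligand of the TAM receptor kinases, with no shared exonic base. It was at 7.09 and 8.24 in HeyC2 and 0.880 and 0.342 in SKOV3, and GAS6 was at 224, 211, 41.1 and 44.9, so both genes were higher in the same line. NNT-AS1 starts 42 bases from NNT, the mitochondrial nicotinamide nucleotide transhydrogenase, and was at 4.62 and 3.73 in HeyC2 and 0.310 and 0.193 in SKOV3, with NNT at 18.2, 14.5, 2.30 and 0.773. DBH-AS1 (4.45 and 4.64 in HeyC2) and its partner DBH, the dopamine beta-hydroxylase, were at 0 in both SKOV3 libraries. RARA-AS1 was at 4.75 and 7.64 in HeyC2 and at 0 and 0.193 in SKOV3, while the retinoic acid receptor gene RARA was at 11.7, 10.1, 10.4 and 31.6. EML2-AS1 and RBM5-AS1 were also on this side, and both were higher in SKOV3 TET1 than in SKOV3 control.

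Members named for zinc finger genes, which encode a large family of DNA-binding proteins clustered on chromosome 19, were taken as a group. Of 19, 10 (52.6%) were lower and 2 higher in HeyC2 control than in SKOV3 control, with a median difference of -0.68. Over all 359 members 25.3% were lower (median -0.03), and over all genes 36.8% were (median -0.25). ZNF667-AS1 was at 0.0800 and 0 FPKM in HeyC2 and 7.25 and 17.2 in SKOV3, with ZNF667 at 0, 0, 4.15 and 11.6. ZNF582-AS1 was at 0 in both HeyC2 libraries and at 3.15 and 10.3 in SKOV3, with ZNF582 at 0, 0, 1.86 and 2.75. ZNF528-AS1 was likewise at 0, 0, 1.96 and 7.05, with ZNF528 at 0.0700, 0.0587, 10.2 and 13.2. In these 3 pairs both genes were expressed in SKOV3 alone, and neither ZNF582-AS1 nor ZNF528-AS1 shares an exonic base with its partner.

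ZNF790-AS1 (3.44 and 6.58 in SKOV3), ZNF793-AS1 (6.19 and 7.88) and ZNF649-AS1 (0.690 and 1.10) were also at 0 in HeyC2 control, and ZNF793-AS1 at 0.210 in HeyC2 TET1 was the only 1 of the 3 listed above 0 there. All 6 lie on chromosome 19. The 6 were higher in SKOV3 TET1 than in SKOV3 control, past 1.5-fold in ZNF667-AS1, ZNF582-AS1, ZNF528-AS1 and ZNF790-AS1. In SKOV3 TET1, 9 of the 19 were higher (47.4%, beside 37% of all members and 28.9% of all genes) and 1 was lower (5.26%, beside 8.36% and 11.3%). Of all genes that peaked under 10 FPKM, 38.2% were higher and 7.27% lower. The group is small and was chosen after values were seen. In HeyC2 TET1, 4 were higher (21.1%, beside 20.9% and 13.8%), which is the share of the members at large, and 0 lower. ZNF674-AS1 (1.37 and 4.25) and ZNF337-AS1 (1.11 and 3.30) were among the HeyC2 increases.

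**Figure D5:**
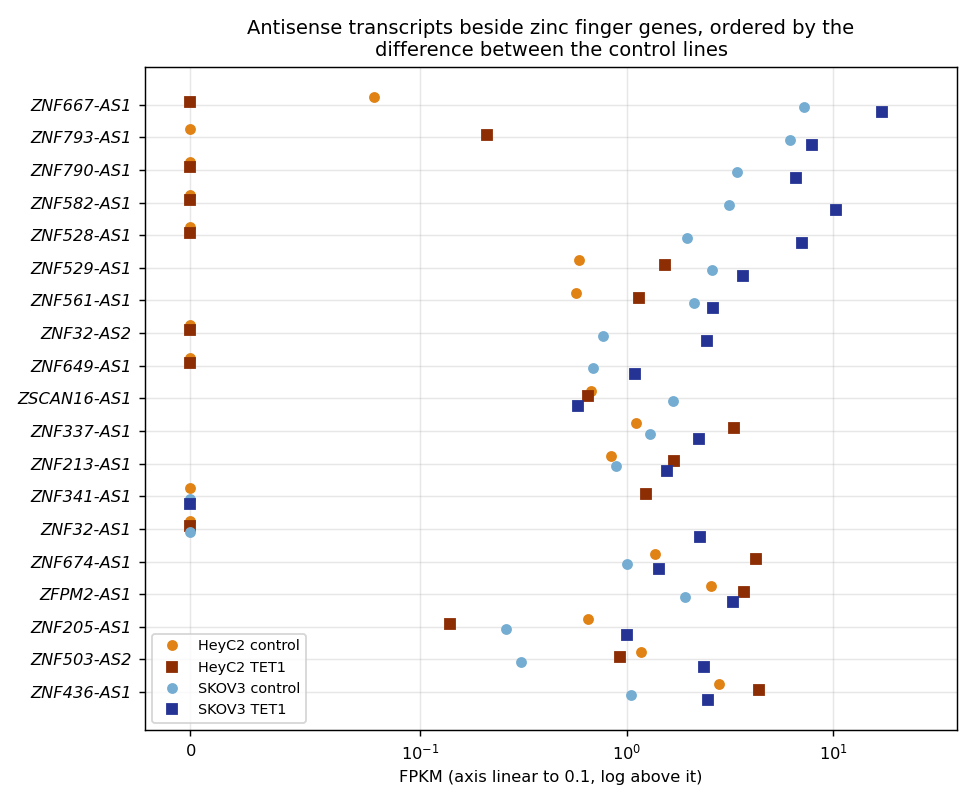
FPKM of the 19 antisense transcripts named for zinc finger genes, 1 point for each library, on an axis that is linear to 0.1 and logarithmic above it, ordered by the difference between the control lines. In the rows ZNF667-AS1, ZNF793-AS1, ZNF790-AS1, ZNF582-AS1, ZNF528-AS1 and ZNF649-AS1 the HeyC2 points lie at or under 0.210 FPKM and the SKOV3 points at 0.690 or more.

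The antisense transcripts of the HOX clusters, which hold the homeobox genes of body axis patterning, differed by line without 1 direction. HOXB-AS1 was at 4.69 and 3.54 FPKM in HeyC2 and 0.670 and 2.40 in SKOV3, whereas HOXB-AS3 was at 9.40 and 10.7 in HeyC2 and 17.8 and 28.9 in SKOV3. HOXC-AS1 and HOXC-AS3 were at 0 in both HeyC2 libraries. With TET1 in SKOV3, 3 of the 5 HOX members were higher (60%) and 1 lower (20%), against 28.9% and 11.3% of all genes. These shares rest on 5 transcripts, most of them with few fragments. The estimates in SKOV3 control and TET1 were 1 and 12 for HOXC-AS1, 3 and 10 for HOXB-AS1, 3 and 0 for HOXC-AS3 and 35 and 54 for HOXB-AS3. In HeyC2, 0 of the 5 were higher and 0 lower, against 13.8% and 6.79% of all genes. NR2F1-AS1, beside the orphan nuclear receptor gene NR2F1, was chosen after its values were seen. It was at 3.27 and 3.08 in HeyC2 and 0.0600 and 2.48 in SKOV3, with NR2F1 at 8.95, 7.66, 0.120 and 6.16, so that both were near 0 in SKOV3 control alone.

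Antisense transcripts known from other work on tumours were read from a list. OIP5-AS1 was at 13.6 and 13.2 FPKM in HeyC2 and 25.3 and 17.7 in SKOV3. MCM3AP-AS1 passed 1.5-fold in HeyC2 (1.5 and 4.11), and SBF2-AS1 (0.720 and 2.19) and VPS9D1-AS1 (1.42 and 3.98) passed it in SKOV3. HOXB-AS3, given above with the HOX clusters, was also past it upward in SKOV3. PSMB8-AS1, beside an immunoproteasome subunit gene, was lower in HeyC2 TET1 (2.51 and 0.869). FOXD2-AS1, ZEB1-AS1, ZNRD1-AS1, TTN-AS1, FGD5-AS1 and both GAS6 antisense transcripts passed it in neither line. ZEB1-AS1 was at 1.32 and 2.16 in HeyC2 and 2.83 and 4.56 in SKOV3, while ZEB1, a transcription factor of the mesenchymal state, was at 22.7 and 23.9 and at 9.14 and 9.02.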

How the data were processed

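RNA of 4 cultures was measured once each. The authors made TruSeq libraries, aligned paired-end reads to hg19 with Bowtie2 2.2.6 and quantified them with RSEM 1.2.17, per the labels, and deposited FPKM in 1 table per cell line. The gene annotation was not given in the sources used here. The constant in each TET1 column was recovered from its value steps (100% of distinct values under 40 FPKM lay on the grid) and divided out. Differences are of log2(FPKM + 1), and 1.5-fold was the limit for a call over 14387 genes with FPKM of at least 1 in any library. There are 4 libraries, 1 per group, so no test was made. Named members are the 10 highest, the 8 highest and 8 lowest of each comparison, those called in both lines and a list of known transcripts. The zinc finger and HOX groups, the 5 FPKM limit for proportions and the printed promoters were chosen after values were seen. The members and lists were chosen with earlier results of these data known. Not every symbol next to the level limit is reported here.

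Positions came from GENCODE on GRCh37 (277 members by symbol, 70 by RefSeq synonym), promoters from RefSeq on GRCh38.p14 (213 by symbol, 54 by synonym). Depth was estimated from the smallest FPKM values of genes with 1 transcript, assuming 150-base fragments. Scripts used Python 3.11.15, numpy 2.4.6 and pandas 2.3.3 and were tested on simulated data. Alternatives were other pseudocounts, scalings, fold limits and filters.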

Additional observations from a re-analysis of the deposited data

Results flagged for a closer look

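Of the 359 antisense transcripts, 18 passed 1.5-fold in opposite directions in the TET1 comparisons of the 2 cell lines. Each direction held 2.51% of the members. Over all genes, 1.39% were higher in HeyC2 and lower in SKOV3, and 1.65% the other way. With 1 library per group the difference between the lines was not tested. Values are differences in log2(FPKM + 1), HeyC2 first and SKOV3 second. Higher in HeyC2 TET1 and lower in SKOV3 TET1 were ATP2A1-AS1 (0.78 and -0.73), GATA2-AS1 (0.62 and -1.11), ITGB2-AS1 (0.61 and -2.23), PCNA-AS1 (0.69 and -0.77), RAB30-AS1 (0.71 and -0.66), SLCO4A1-AS1 (1.45 and -0.64), SUCLG2-AS1 (0.65 and -1.0), TOPORS-AS1 (0.90 and -0.77) and VPS13A-AS1 (0.62 and -1.34). Lower in HeyC2 TET1 and higher in SKOV3 TET1 were GAS8-AS1 (-0.62 and 1.38), OR2A1-AS1 (-1.04 and 1.27), PITPNA-AS1 (-0.67 and 1.25), RAMP2-AS1 (-1.18 and 1.25), RGMB-AS1 (-0.71 and 1.14), SEMA6A-AS1 (-0.88 and 0.60), SERTAD4-AS1 (-0.80 and 0.99), SOCS2-AS1 (-1.40 and 1.08) and TMEM9B-AS1 (-1.02 and 1.62). For members listed at 0 in a library, such as SOCS2-AS1 in HeyC2 TET1 and GATA2-AS1 in SKOV3 TET1, the value is set by the pseudocount. Some members rest on few estimated fragments in every library. In HeyC2 control and TET1 and then SKOV3 control and TET1 these were 2, 0, 1 and 3 for SEMA6A-AS1. They were 5, 10, 8 and 4 for TOPORS-AS1 and 8, 3, 3 and 8 for SERTAD4-AS1. For OR2A1-AS1 they were 3, 0, 0 and 4, for VPS13A-AS1 0, 2, 6 and 0, and for TMEM9B-AS1 5, 1, 1 and 9. With the values as deposited, 3 of the 18 (PITPNA-AS1, RGMB-AS1 and SERTAD4-AS1) changed sign in HeyC2 and 0 in SKOV3, and 0 changed sign in either line in TPM or with the median of all genes subtracted. Rescaling leaves the fragment counts as they are, so it cannot address counting error.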

How the results depend on the processing

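With 1 library per group, neither the spread between cultures nor the loss of a library could be examined, and low members rest on few fragments. No paired analysis was possible because each group has 1 library and no test was made. Of the counts and shares that answer a comparison, 42 moved by less than their limit under an alternative and 24 by more. The HeyC2 counts of 75 higher and 24 lower became 119 and 56 with a pseudocount of 0.1 FPKM, 123 and 60 with 0.01, 279 and 9 as deposited, and 25 and 9 at 2-fold. The shares over all genes moved as well. With 0.1 FPKM, 33.1% and 15.6% of the members stood against 19.9% and 10.8% of all genes. With 0.01 it was 34.3% and 16.7% against 21.0% and 11.6%, and at 2-fold 6.96% and 2.51% against 4.46% and 2.23%. Lower HeyC2 members numbered 49 in TPM. They numbered 12 with a mean of at least 1 FPKM in the libraries compared (5.26%, against 7.40% of all genes). Among members at 2 FPKM or more they numbered 12 (4.82%, against 6.90%). The SKOV3 counts of 133 higher and 30 lower became 68 and 12 at 2-fold (18.9% and 3.34%, against 13.9% and 4.21% of all genes). Lower SKOV3 members numbered 51 and 53 with the smaller pseudocounts (14.2% and 14.8%, against 13.5% and 13.8%). They numbered 18 as deposited, 46 with the median subtracted and 19 with a mean of at least 1 FPKM (7.57%, against 11.5%). Between the control lines 52 were higher and 50 lower at 2-fold (14.5% and 13.9%, against 13.1% and 22.7% of all genes). The share of called members whose partner had the same sign became 93.3% (HeyC2) and 79.7% (SKOV3) from the deposited values, and 40.7% and 51.1% over pairs with no shared exonic base. The as-deposited values keep the constant, which raised the median of all genes from 0.04 to 1.54 in HeyC2 and from 0.19 to 0.56 in SKOV3, and VIM-AS1 in HeyC2 turned from -1.45 to 0.24.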
